A study of Mus musculus with 31 samples.

Results

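Interferon-stimulated genes are the genes that a cell switches on after an interferon has bound its receptor. The 39 genes described here were listed by name as known members of this group and matched by symbol, and all 39 were found by symbol among the 55379 genes of the count files. Type I interferons act through the kinases JAK1 and TYK2, which activate STAT2, and this joins IRF9 in a complex that binds a short promoter motif, the interferon-stimulated response element. The products sense viral RNA and DNA, block translation, degrade RNA, tag proteins with the ubiquitin-like ISG15, and cut and transport peptides for antigen presentation. In the lactating mammary gland, kinases and STAT proteins of the same families carry the prolactin signal.

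Mammary glands came from C57BL/6J dams on lactation day 10, with 1 library of polyadenylated RNA per dam. Dams ate a breeder diet with 4 mg/kg folic acid (FA) or an FA diet with 24 mg/kg from 2 weeks before mating, which began at 6 weeks of age. From embryonic day 13 to lactation day 10 they were injected intraperitoneally each day with saline or with 20 mg/kg of fluoxetine, a selective serotonin reuptake inhibitor. By the labels, 8 dams had breeder diet + saline, 7 breeder diet + fluoxetine, 8 FA diet + saline and 8 FA diet + fluoxetine, while the methods swap the sizes of the fluoxetine groups (8 on the breeder diet, 7 on the FA diet), and the labels were followed. Total counts per dam ran from 15412542 to 36000439. Levels are given in CPM, read counts scaled by library size with TMM factors. A filter on low counts left 14362 genes for testing, 38 of the 39 members among them. The member it removed was *Oas3*, a synthetase of the RNA-degrading OAS system, with 164 counts in total and with 7 of 31 dams at 0. Differences were tested in edgeR, with their standard error (SE) and with p-values adjusted over the 14362 genes, and a gene was called at an FDR of 10%.

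One library stood apart over all genes. In dam 3 of FA diet + fluoxetine, the 20 most abundant genes held 39.3% of the counts, against 60.5% to 81.0% in the other dams. Its median rank correlation with the dams of its own group was 0.806, where the other dams had 0.927 to 0.965. Dam 3 of FA diet + saline had a rank correlation of 0.946, within that range, but its 20 most abundant genes held 70.1%, below the 77.7% to 81.0% of the rest of its group and with only dam 13 of breeder diet + fluoxetine and the former dam lower. In the interferon-stimulated genes, these dams 3 of the FA diet groups lay above all others. The level of the whole list in a dam, the mean over 38 genes of log2 CPM minus the gene's mean over 31 dams, was 0.69 in dam 3 of FA diet + fluoxetine and 0.60 in dam 3 of FA diet + saline. The next highest dam, dam 5 of FA diet + saline, was at 0.20. Results of the comparisons are therefore given with all 31 dams and, for the list and the genes described group by group, for 29 dams. The 29 dams leave out these libraries, an alternative chosen after seeing the data.

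Over the groups, the list level ran from -0.43 to 0.19 (median -0.05) in breeder diet + saline, from -0.46 to 0.11 (median 0.03) in breeder diet + fluoxetine, from -0.34 to 0.60 (median 0.02) in FA diet + saline, and from -0.19 to 0.69 (median 0.06) in FA diet + fluoxetine. The ranges of all 4 groups overlapped between -0.19 and 0.11. The lowest dams were dam 6 of breeder diet + fluoxetine and dam 3 of breeder diet + saline, and the highest were the dams 3 of both FA diet groups. The group means were -0.07 ± 0.236 (SD, n = 8), -0.05 ± 0.197 (SD, n = 7), 0.04 ± 0.281 (SD, n = 8) and 0.08 ± 0.280 (SD, n = 8) in the same order. Without the dams 3, the FA diet means were -0.04 ± 0.181 (SD, n = 7) with saline and -0.01 ± 0.140 (SD, n = 7) with fluoxetine. All differences between these means were smaller than the spread between dams.

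**Figure D1:**
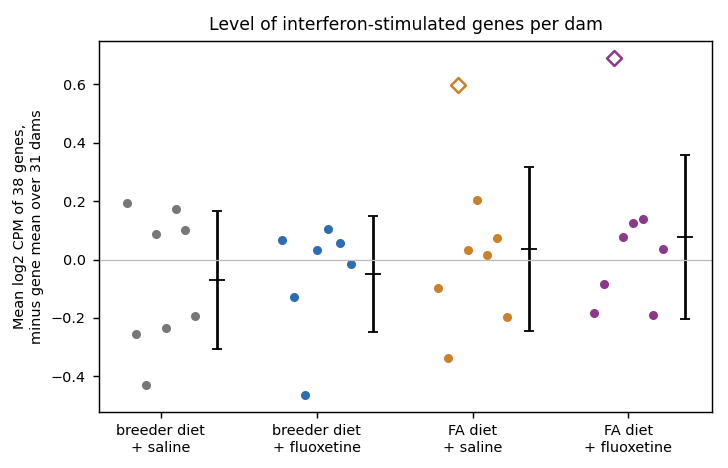
Level of 38 interferon-stimulated genes in each of 31 dams, as the mean log2 CPM minus each gene's mean over all dams, by group, with group mean ± SD beside the points. Open diamonds are dam 3 of FA diet + saline at 0.60 and dam 3 of FA diet + fluoxetine at 0.69, above all other dams.

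Markers of the cell types in the gland were measured in the same libraries. The 8 luminal secretory markers, all past the filter and led by the milk protein gene *Wap*, summed to 354051 CPM in dam 3 of FA diet + saline, 42361 CPM in dam 3 of FA diet + fluoxetine and 235942 to 730514 CPM in the other dams. The 7 macrophage markers, all past the filter and led by *C1qa*, summed to 63.6 CPM in dam 3 of FA diet + saline, 249.9 CPM in dam 3 of FA diet + fluoxetine and 40.8 to 79.0 CPM in the other dams. For the 4 leukocyte markers, led by *Coro1a*, the sums in the same order were 23.1, 43.3 and 12.5 to 27.8 CPM. They were 98.4, 685 and 38.6 to 224 CPM for the 4 fibroblast markers, led by *Col3a1*, and 304, 860.1 and 151 to 412 CPM for the 6 adipocyte markers, led by *Fabp4*, with all of these genes past the filter. Dam 3 of FA diet + fluoxetine was thus below all other dams in milk genes and above them in macrophage, leukocyte, fibroblast, adipocyte, and T and NK cell markers, while dam 3 of FA diet + saline lay within the range of the other dams in these lists and in those that follow. In milk genes, however, it was below the 523965 to 730514 CPM of the rest of its group, and only dam 3 of FA diet + fluoxetine and dam 13 of breeder diet + fluoxetine were lower. In bulk tissue, fewer cells of a type and less RNA per cell cannot be told apart.

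Further lists, in the same order of dams, gave 385, 406 and 203 to 557 CPM for 5 of 5 myoepithelial markers past the filter, led by *Acta2*. Endothelial markers, 4 of 4 led by *Kdr*, summed to 51.7, 37.4 and 24.3 to 59.1 CPM. Plasmacytoid dendritic cell markers, 4 of 6 led by *Tcf4*, summed to 12.6, 38.4 and 10.4 to 63.7 CPM, with *Ccr9* and *Pacsin1* at 0 in both dams 3 and *Ly6d* and *Cox6a2* at 0 in dam 3 of FA diet + fluoxetine. These dendritic cells are a main source of type I interferon in infection. *Tcf4* had a median of 11.8 CPM over dams, where the whole list had a median of 15.8 CPM in the dams other than the dams 3. The sums thus rested largely on this gene and do not measure these cells alone. The highest sum, 63.7 CPM, was in dam 5 of breeder diet + fluoxetine, which also had the highest skeletal muscle sum, 5553 CPM. Neutrophil markers, 2 of 6 led by *Csf3r*, summed to 0.643, 0.734 and 0.237 to 5.23 CPM, with *S100a9* and *Cxcr2* at 0 in both dams 3, *Retnlg* at 0 in that of FA diet + saline and *Ly6g* at 0 in that of FA diet + fluoxetine. T and NK cell markers, 1 of 7 with *Gzma* as the leading gene, summed to 1.36, 3.6005 and 0 to 3.27 CPM, with *Cd3e* at 0 in dam 3 of FA diet + saline and *Gzmb* at 0 in dam 3 of FA diet + fluoxetine. Skeletal muscle markers, 5 of 5 led by *Acta1*, summed to 61.7, 0.664 and 0.651 to 5553 CPM, with *Acta1*, *Ckm* and *Myh4* at 0 in dam 3 of FA diet + fluoxetine. The part of these cell types in the levels of interferon-stimulated genes was not tested.

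Per length of annotated exon, the members covered a wide range of levels in the gland. The highest median over dams was 28.0 CPM per kb for *Bst2*, which encodes tetherin, a membrane protein that holds budding viruses at the cell surface. Next were *Ifi27* at 9.601 CPM per kb, *Ifi35* at 7.57, *Irf9* at 4.39, *Cmpk2* at 3.73 and *Trim25* at 3.23. The lowest were *Oas3* at 0.0212 CPM per kb, the GTPase gene *Mx1* at 0.104, its neighbour *Mx2* at 0.142, and *Oas1a* at 0.155. *Isg15* lay between them at 2.06 CPM per kb. The factors that carry the signal were thus measured above several of the effectors: *Stat2* had 2.82 CPM per kb and *Irf9* 4.39, against 0.208 for *Ifit1* and 0.456 for *Oas2*.

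Fluoxetine was compared with saline over 15 and 16 dams. None of 38 members was called by edgeR at an FDR of 10%, where 0.0209% of all genes tested were (3 of 14362). At an unadjusted p of 0.05 or below, 2 of 38 members were higher with fluoxetine, against 6.94% of all genes, and 0 were lower, against 2.98%. DESeq2 also gave 0 members at the FDR, with 70 of all genes called, and 2 at that p, where 10.9% of all genes were in either direction. By edgeR the 2 members were *Eif2ak2* and *Stat2*, a share near that of all genes. The median log2 fold change of the members was 0.09, with 27 of 38 positive, where all genes had a median of 0.02 and 53.5% positive. In the 29 dams, 4 members were higher at that p and 0 lower, against 6.68% and 3.75% of all genes. They were *Stat2*, *Eif2ak2*, *Irf9* and *Ifi27*. The members' median there was 0.03, with 20 of 38 positive. Without dam 3 of FA diet + fluoxetine alone, it was -0.04.

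The FA diet was compared with the breeder diet over 16 and 15 dams. Members called by edgeR numbered 0 of 38, where 0% of all genes were called. At an unadjusted p of 0.05 or below, 3 members were higher on the FA diet, against 2.95% of all genes, and 0 were lower, against 2.12%. They were *Isg15*, *Oas1a* and *Ifit2*. DESeq2, which by default replaces single outlying counts in groups of this size, gave 0 members at the FDR, with 0 of all genes called, and 4 at that p, where 5.54% of all genes were in either direction. The members' median log2 fold change was 0.09 with 26 of 38 positive, where all genes had 0.02 and 53.9% positive. These counts rested on the dams 3. Without either one of them alone the count was 0, and in the 29 dams 0 members were higher and 1, the RNA sensor gene *Rigi*, was lower, against 3.39% and 3.73% of all genes. The members' median in the 29 dams was 0.01, with 21 of 38 positive. Both dams 3 ate the FA diet and were left out partly for their high list level, so a lower FA difference was built in.

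The interaction asks whether the difference between fluoxetine and saline was the same on both diets. With edgeR, 0 of 38 members were called, where 0% of all genes were. At an unadjusted p of 0.05 or below, 0 members had a higher and 0 a lower fluoxetine difference on the FA diet, against 2.65% and 1.19% of all genes, and DESeq2 gave 0 as well, with 4.45% of all genes at that p. The median interaction was 0.08 over the members and 0.03 over all genes. For the members it was 0.03 in the 29 dams and turned to -0.17 without dam 3 of FA diet + fluoxetine alone. In the 29 dams, 1 member (*Cmpk2*) was higher and 1 (*Parp9*) lower, against 2.29% and 1.56% of all genes. The 3 comparisons share all their dams.

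**Figure D2:**
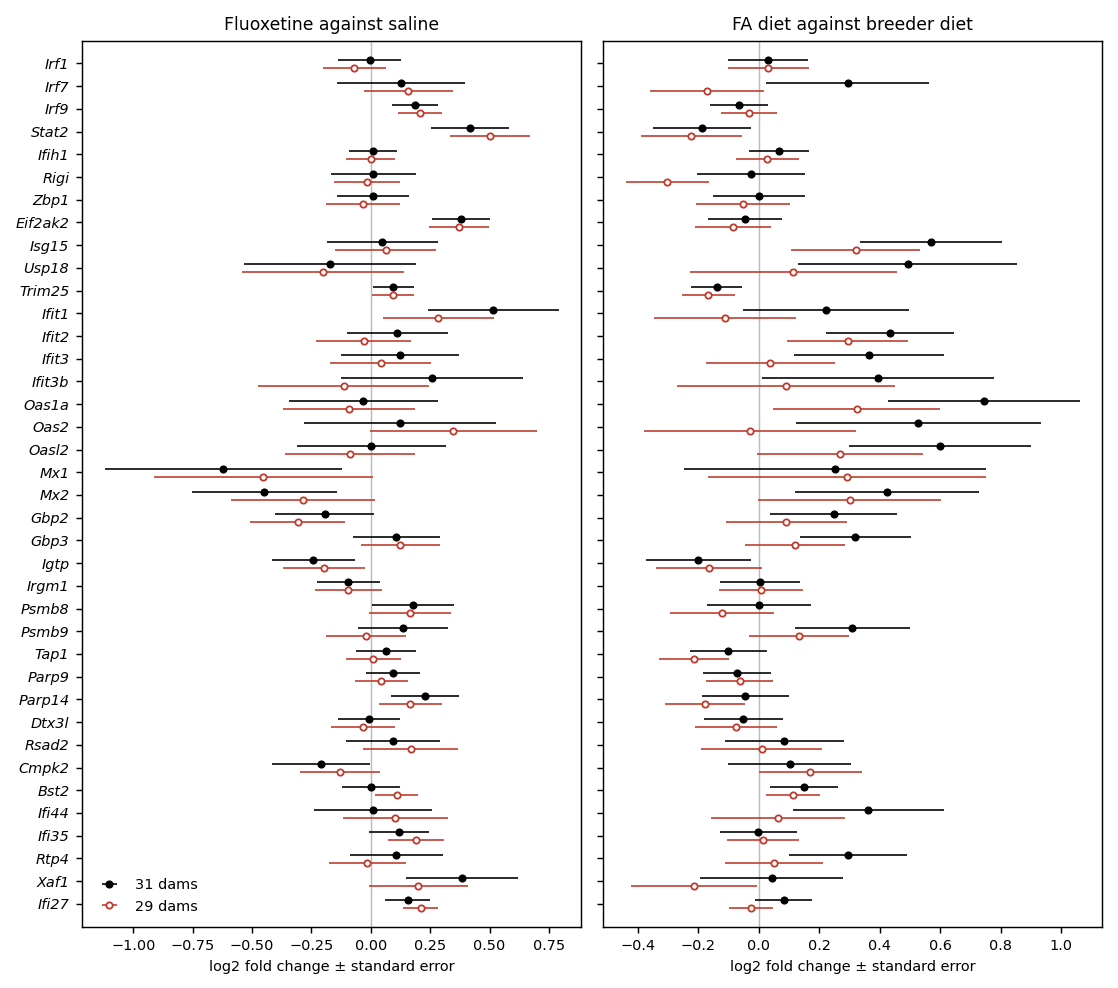
Log2 fold change ± standard error of 38 interferon-stimulated genes for fluoxetine against saline and for FA diet against breeder diet, with all 31 dams (filled) and with 29 dams (open, without dam 3 of both FA diet groups). On the FA diet side, *Isg15* moved from 0.57 to 0.32 and *Irf7* from 0.29 to -0.17.

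Of the 4 transcription factors, *Stat2*, which carries the interferon signal to the nucleus, ran from 12.2 to 29.01 CPM (median 17.7) in breeder diet + saline, from 17.2 to 44.0 CPM (median 22.5) in breeder diet + fluoxetine, from 10.5 to 25.2 CPM (median 14.4) in FA diet + saline and from 13.4 to 34.5 CPM (median 20.1) in FA diet + fluoxetine. Its fluoxetine values sat above the saline values on both diets by their medians, with overlap, and dam 9 of breeder diet + fluoxetine was far above its group. The log2 fold change for fluoxetine was 0.42 (SE 0.163, adjusted p = 0.417), and 13 of 15 fluoxetine dams exceeded the median of saline dams on the same diet. It was 0.50 in the 29 dams and 0.30 without dam 9 of breeder diet + fluoxetine. For the FA diet, the log2 fold change was -0.19 (SE 0.163, adjusted p = 0.943), with 6 of 16 FA diet dams above the breeder diet median of their treatment, and -0.22 in the 29 dams. *Irf9*, the DNA-binding partner of STAT2, ran from 20.7 to 27.3 CPM (median 25.2) in breeder diet + saline, from 23.0 to 40.7 CPM (median 26.6) in breeder diet + fluoxetine, from 20.1 to 30.5 CPM (median 22.7) in FA diet + saline and from 18.3 to 32.7 CPM (median 28.9) in FA diet + fluoxetine. The groups overlapped, with dam 9 of breeder diet + fluoxetine the highest and dam 3 of FA diet + fluoxetine the lowest of all dams. For fluoxetine it had a log2 fold change of 0.18 (SE 0.0959, adjusted p = 0.527), with 10 of 15 dams above, and of 0.21 in the 29 dams. For FA the log2 fold change of *Irf9* was -0.07 (SE 0.0959, adjusted p = 0.987), with 8 of 16 dams above, and -0.03 in the 29 dams. Without the same dam 9 it was -0.02, and with the block it turned to 0.0704.

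*Irf7*, the factor that amplifies interferon production once a response has begun, ran from 3.14 to 10.4 CPM (median 5.45) in breeder diet + saline, from 1.77 to 9.61 CPM (median 6.64) in breeder diet + fluoxetine, from 4.04 to 21.9 CPM (median 5.04) in FA diet + saline and from 3.32 to 21.6 CPM (median 5.44) in FA diet + fluoxetine. Both dams 3 were above every other dam, at 21.9 and 21.6 CPM against at most 10.4 CPM, and the other dams of the 4 groups overlapped. The fluoxetine log2 fold change was 0.13 (SE 0.268, adjusted p = 0.911), with 11 of 15 fluoxetine dams above the median of saline dams on the same diet, and 0.16 in the 29 dams. Leaving out 1 dam turned it to -0.10 when that was dam 3 of FA diet + fluoxetine, and gave 0.37 when it was dam 3 of FA diet + saline. The FA diet log2 fold change was 0.29 (SE 0.269, adjusted p = 0.947), with 6 of 16 FA diet dams above the breeder diet median of their treatment. It turned to -0.17 in the 29 dams. *Irf1*, a factor that also responds to interferon gamma, ran from 4.83 to 13.3 CPM over all dams, with log2 fold changes of -0.0057 for fluoxetine and 0.03 for FA. In the 29 dams these values were -0.07 and 0.03. Unlike *Irf7*, *Irf1* was not raised in dam 3 of FA diet + saline, which had 5.50 CPM.

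Among the sensors, *Eif2ak2*, which encodes the RNA-dependent kinase PKR that halts translation, ran from 5.33 to 12.3 CPM (median 9.77) in breeder diet + saline, from 7.32 to 18.01 CPM (median 10.7) in breeder diet + fluoxetine, from 6.48 to 11.2 CPM (median 8.64) in FA diet + saline and from 7.73 to 15.8 CPM (median 11.9) in FA diet + fluoxetine. The fluoxetine groups reached higher than the saline groups and overlapped with them. Its log2 fold change for fluoxetine was 0.38 (SE 0.122, adjusted p = 0.347), the smallest p of the 38 members, with 11 of 15 dams above the median of saline dams on the same diet. It was 0.37 in the 29 dams and 0.30 without dam 9 of breeder diet + fluoxetine, the dam with the highest level. *Rigi*, formerly *Ddx58*, which encodes a sensor of viral RNA, ran from 2.14 to 9.04 CPM. The dams 3 were the highest with 7.47 CPM (FA diet + saline) and 9.04 CPM (FA diet + fluoxetine), against at most 5.84 CPM in the other dams. Its FA log2 fold change was -0.03 (SE 0.180), and -0.30 in the 29 dams. *Ifih1*, the gene of the RNA sensor MDA5, ran from 4.05 to 9.39 CPM. *Zbp1*, the gene of a sensor of nucleic acids in the Z form, ran from 1.37 to 4.29 CPM, and in these sensor genes neither dam 3 was the highest.

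In the ISG15 system, *Isg15* itself ran from 0.989 to 2.92 CPM (median 1.39) in breeder diet + saline, from 0.605 to 2.88 CPM (median 1.57) in breeder diet + fluoxetine, from 1.35 to 4.75 CPM (median 1.93) in FA diet + saline and from 0.694 to 4.56 CPM (median 2.01) in FA diet + fluoxetine. The dams 3 of both FA diet groups were the highest of all, and 13 of 16 FA diet dams lay above the breeder diet median of their treatment. The groups overlapped, and the lowest value of all was in dam 9 of breeder diet + fluoxetine. The FA log2 fold change was 0.57 (SE 0.234, adjusted p = 0.933) and 0.32 in the 29 dams. For fluoxetine it was 0.05 (SE 0.232, adjusted p = 0.966), with 8 of 15 dams above, and 0.06 in the 29 dams. It turned to -0.08 without dam 3 of FA diet + fluoxetine. *Usp18* encodes the protease that removes ISG15 from proteins and restrains the interferon receptor. It had 3.29 and 3.34 CPM in the dams 3 of FA diet + saline and FA diet + fluoxetine, at most 1.87 CPM in the others, and 0 counts in dam 9 of breeder diet + fluoxetine. *Trim25*, a ubiquitin ligase that activates RIG-I, ran from 15.7 to 21.9 CPM (median 19.1) in breeder diet + saline, from 15.9 to 23.0 CPM (median 18.6) in breeder diet + fluoxetine, from 11.7 to 20.0 CPM (median 17.0) in FA diet + saline and from 12.3 to 20.8 CPM (median 19.3) in FA diet + fluoxetine. Neither dam 3 was apart, and the groups overlapped, with dam 1 of FA diet + saline and dam 5 of FA diet + fluoxetine the lowest. Its interaction was 0.25 (SE 0.171, adjusted p = 0.977), and 0.25 in the 29 dams. Over the alternatives other than single dams left out, it lay between 0.0384 and 0.27.

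The IFIT genes, whose products bind viral RNA and limit its translation, were highest in dam 3 of FA diet + fluoxetine for 4 of 4 members. *Ifit1* ran from 0.846 to 3.20 CPM (median 1.47) in breeder diet + saline, from 0.828 to 3.43 CPM (median 1.81) in breeder diet + fluoxetine, from 0.778 to 2.83 CPM (median 1.39) in FA diet + saline and from 1.14 to 8.09 CPM (median 1.76) in FA diet + fluoxetine. Dam 3 of FA diet + fluoxetine was far above the other dams of its group, and dam 3 of FA diet + saline, at 2.32 CPM, was not apart. For fluoxetine the log2 fold change was 0.52 (SE 0.274, adjusted p = 0.536), with 11 of 15 dams above the saline median. It was 0.28 in the 29 dams and 0.22 without dam 3 of FA diet + fluoxetine alone. *Ifit2* ran from 0.801 to 1.59 CPM (median 1.33) in breeder diet + saline, from 0.651 to 1.84 CPM (median 1.18) in breeder diet + fluoxetine, from 0.863 to 2.33 CPM (median 1.34) in FA diet + saline and from 0.830 to 4.11 CPM (median 1.67) in FA diet + fluoxetine. All 4 groups overlapped below that dam. Its FA log2 fold change was 0.43 (SE 0.212, adjusted p = 0.933), with 9 of 16 dams above the breeder diet median, and 0.29 in the 29 dams. *Ifit3* had 4.54 CPM in dam 3 of FA diet + saline and 6.78 CPM in dam 3 of FA diet + fluoxetine, against at most 3.26 CPM elsewhere. Its neighbour *Ifit3b* had 2.29 CPM in dam 3 of FA diet + fluoxetine and at most 0.971 CPM in the dams other than the dams 3. These genes share sequence: 16.7% of the 100-base stretches of *Ifit3* transcripts and 27.2% of those of *Ifit3b* occur in the other gene too.

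The OAS genes encode synthetases of a small messenger that switches on RNA decay, and *Oasl2* encodes a relative of them. *Oas2* ran from 1.11 to 5.09 CPM (median 1.52) in breeder diet + saline, from 1.12 to 3.97 CPM (median 2.16) in breeder diet + fluoxetine, from 0.575 to 12.5 CPM (median 1.46) in FA diet + saline and from 0.568 to 9.28 CPM (median 2.89) in FA diet + fluoxetine. It reached the highest levels of the family, with the dams 3 on top, and the other dams of the 4 groups overlapped. *Oas1a* ran from 0.232 to 1.86 CPM (median 1.17) in breeder diet + saline, from 0.202 to 1.76 CPM (median 1.15) in breeder diet + fluoxetine, from 0.684 to 4.32 CPM (median 1.38) in FA diet + saline and from 0.997 to 5.47 CPM (median 1.27) in FA diet + fluoxetine. Again the dams 3 were the highest, and below them the groups overlapped. The FA log2 fold change of *Oas1a* was 0.75 (SE 0.317, adjusted p = 0.933), with 11 of 16 dams above the breeder diet median, and 0.32 in the 29 dams. For *Oas2* it was 0.53 (SE 0.405) and -0.03. *Oasl2* reached 5.25 and 7.45 CPM in the dams 3 of FA diet + saline and FA diet + fluoxetine, and at most 4.37 CPM elsewhere. Of the *Mx* GTPase genes, neither was high in dam 3 of FA diet + fluoxetine. *Mx1* was at 0 counts in 2 dams, ran to 1.23 CPM, and dam 3 of FA diet + fluoxetine was among those at 0. *Mx2* was highest in dam 3 of FA diet + saline with 1.68 CPM and had 0.437 CPM in dam 3 of FA diet + fluoxetine. Their fluoxetine log2 fold changes were -0.62 (SE 0.4998) for *Mx1* and -0.45 (SE 0.305) for *Mx2*, at few counts, and -0.45 and -0.29 in the 29 dams. For FA they were 0.25 and 0.42, and 0.29 and 0.30 in the 29 dams.

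**Figure D3:**
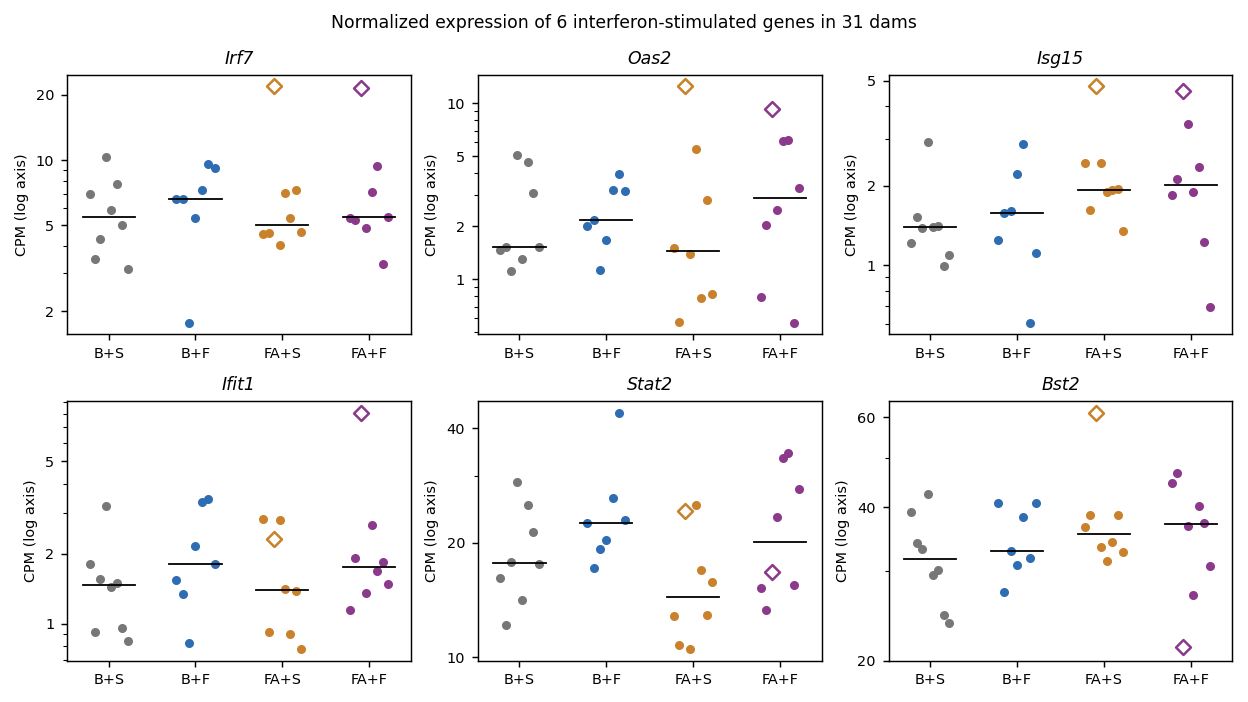
Normalized expression (CPM, log axis) of *Irf7*, *Oas2*, *Isg15*, *Ifit1*, *Stat2* and *Bst2* in each dam of breeder diet + saline (B+S), breeder diet + fluoxetine (B+F), FA diet + saline (FA+S) and FA diet + fluoxetine (FA+F), with lines at the group medians and open diamonds for dam 3 of the FA diet groups. Both diamonds are on top for *Irf7*, *Oas2* and *Isg15*, while for *Bst2* one is the highest and the other the lowest of all dams.

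The guanylate-binding proteins and immunity-related GTPases attack vacuoles that hold pathogens. *Gbp3* had 9.22 and 9.40 CPM in the dams 3 of FA diet + saline and FA diet + fluoxetine, and at most 7.02 CPM in the others. *Gbp2* was highest, with 7.03 CPM, in dam 3 of FA diet + fluoxetine. *Igtp* was lowest there, with 2.66 CPM, and highest in dam 1 of breeder diet + saline with 14.0 CPM. *Irgm1* ran from 3.22 to 9.68 CPM, with neither dam 3 apart. Of the antigen processing genes, the immunoproteasome subunit gene *Psmb9* and the peptide transporter gene *Tap1* were highest in dam 3 of FA diet + fluoxetine, at 11.4 and 17.0 CPM, against at most 5.76 and 14.6 CPM in the dams other than the dams 3. The subunit gene *Psmb8* ran from 3.63 to 13.6 CPM, with the highest value in dam 9 of breeder diet + fluoxetine. The fluoxetine log2 fold changes of these 7 genes lay between -0.24 (*Igtp*) and 0.18 (*Psmb8*), and those for FA between -0.20 (*Igtp*) and 0.32 (*Gbp3*). In the 29 dams they lay between -0.31 (*Gbp2*) and 0.17 (*Psmb8*) for fluoxetine and between -0.21 (*Tap1*) and 0.13 (*Psmb9*) for FA. The median of the 3 antigen processing genes went from 0.14 to 0.0097 for fluoxetine and turned from 0.00081 to -0.12 for FA.

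*Parp9* and *Dtx3l*, whose products form a complex that modifies histones and viral proteins, lie head to head on chromosome 16, and *Parp14*, a related ADP-ribosyltransferase gene, lies near them. *Parp9* ran from 4.01 to 9.54 CPM (median 7.54) in breeder diet + saline, from 7.64 to 12.2 CPM (median 8.80) in breeder diet + fluoxetine, from 5.32 to 10.6 CPM (median 8.39) in FA diet + saline and from 5.33 to 9.83 CPM (median 7.66) in FA diet + fluoxetine. By the medians, fluoxetine dams were above saline dams on the breeder diet and below them on the FA diet, with overlap on both. Its interaction, the smallest p of the 38 members, was -0.43 (SE 0.226, adjusted p = 0.977) with 31 dams and -0.53 with 29. *Dtx3l* ran from 3.38 to 9.96 CPM, and its interaction was -0.19 (SE 0.261). *Parp14* was highest in dam 3 of FA diet + fluoxetine with 14.6 CPM, and its fluoxetine log2 fold change was 0.23 (SE 0.143).

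Among the other effectors, *Ifi27*, an interferon-induced gene of a mitochondrial protein, ran from 33.55 to 46.0 CPM (median 39.6) in breeder diet + saline, from 40.4 to 58.5 CPM (median 47.7) in breeder diet + fluoxetine, from 33.6 to 75.0 CPM (median 41.5) in FA diet + saline and from 39.04 to 58.0 CPM (median 45.9) in FA diet + fluoxetine. The highest of all was dam 3 of FA diet + saline, and 4 of 7 breeder diet + fluoxetine dams lay above every breeder diet + saline dam, while the others overlapped with them. Fluoxetine had a log2 fold change of 0.16 (SE 0.0938, adjusted p = 0.584), with 14 of 15 dams above the median of saline dams on the same diet, and 0.21 in the 29 dams. *Xaf1*, a gene of apoptosis control, ran from 0.886 to 2.47 CPM (median 1.57) in breeder diet + saline, from 1.12 to 2.93 CPM (median 2.44) in breeder diet + fluoxetine, from 0.720 to 2.18 CPM (median 1.80) in FA diet + saline and from 0.564 to 6.06 CPM (median 1.69) in FA diet + fluoxetine. The groups overlapped apart from dam 3 of FA diet + fluoxetine. Its fluoxetine log2 fold change was 0.38 (SE 0.237, adjusted p = 0.592), with 8 of 15 dams above the saline median. It was 0.20 in the 29 dams and 0.16 without dam 3 of FA diet + fluoxetine alone.

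*Cmpk2*, a mitochondrial nucleotide kinase gene beside *Rsad2*, ran from 11.9 to 24.9 CPM (median 19.5) in breeder diet + saline, from 8.34 to 15.8 CPM (median 14.7) in breeder diet + fluoxetine, from 13.5 to 22.8 CPM (median 17.1) in FA diet + saline and from 3.62 to 48.2 CPM (median 14.9) in FA diet + fluoxetine. In FA diet + fluoxetine, dam 2 was the highest and dam 3 the lowest of all dams, so the group spanned the others. The interaction was 0.62 (SE 0.411, adjusted p = 0.977) and 0.78 in the 29 dams, and it was 0.24 without dam 2 of FA diet + fluoxetine. *Rsad2*, the gene of the antiviral enzyme viperin, ran from 0.887 to 3.93 CPM. *Bst2* ran from 23.7 to 42.3 CPM (median 31.6) in breeder diet + saline, from 27.2 to 40.8 CPM (median 32.8) in breeder diet + fluoxetine, from 31.4 to 61.2 CPM (median 35.4) in FA diet + saline and from 21.2 to 46.6 CPM (median 37.0) in FA diet + fluoxetine. Here the dams 3 lay at opposite ends, with that of FA diet + saline the highest and that of FA diet + fluoxetine the lowest of all dams. *Ifi44* had 6.18 CPM in dam 3 of FA diet + saline, the highest value, and 1.01 CPM at the least. *Rtp4*, the gene of a receptor-transporting protein, had 3.61 and 6.59 CPM in the dams 3 of FA diet + saline and FA diet + fluoxetine and at most 3.12 CPM in the others. *Ifi35* ran from 13.8 to 45.1 CPM, and 9.92% of its 100-base stretches occur in other genes, mostly its neighbour *Vat1*.

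Some members overlap other genes in sequence, which bears on how reads were assigned. Of the 100-base stretches of its transcripts, *Irf1* shared 32.4% with other genes, *Rtp4* 25.0%, *Isg15* 16.5% and *Oas1a* 9.75%, mostly with its relative *Oas1g*. The neighbours *Psmb9* and *Tap1* shared 13.8% and 8.66% with each other. For *Parp9* and *Dtx3l* the shares with each other were 5.81% and 5.78%. *Irf7*, *Stat2*, *Rigi*, *Trim25*, *Cmpk2* and *Bst2* shared none.

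Over the members, dam 3 of FA diet + fluoxetine had at least 2 times the median of the other dams of its group in 19 of 38 genes, where 21.0% of all genes tested reached this. For dam 3 of FA diet + saline it was 11 of 38 genes, where 8.30% of all genes reached it. The first was the highest of 31 dams in 15 members (21.9% of all genes), and the second in 8 members (2.05% of all genes). In 10 members these dams held the top places together, which was so for 133 of all genes tested (0.926%). Those members were *Irf7*, *Rigi*, *Isg15*, *Usp18*, *Ifit3*, *Oas1a*, *Oas2*, *Oasl2*, *Gbp3* and *Rtp4*, named after their values were seen. The counts describe libraries that were picked for their level of these genes and carry no test. Dam 9 of breeder diet + fluoxetine was the highest of all dams in 4 members tested (6.46% of all genes) and the lowest in 6 (7.93% of all genes). Being lowest in 6 members was not particular to it: so were dam 6 of breeder diet + fluoxetine (2.45% of all genes) and dam 3 of breeder diet + saline (2.14% of all genes). Dam 9 was the highest in *Stat2*, *Irf9*, *Eif2ak2* and *Psmb8*, at 44.0, 40.7, 18.01 and 13.6 CPM, and the lowest in *Isg15*, *Usp18*, *Oas1a*, *Gbp2*, *Psmb9* and *Rtp4*, at 0.605, 0, 0.202, 1.01, 1.34 and 1.28 CPM.

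**Figure D4:**
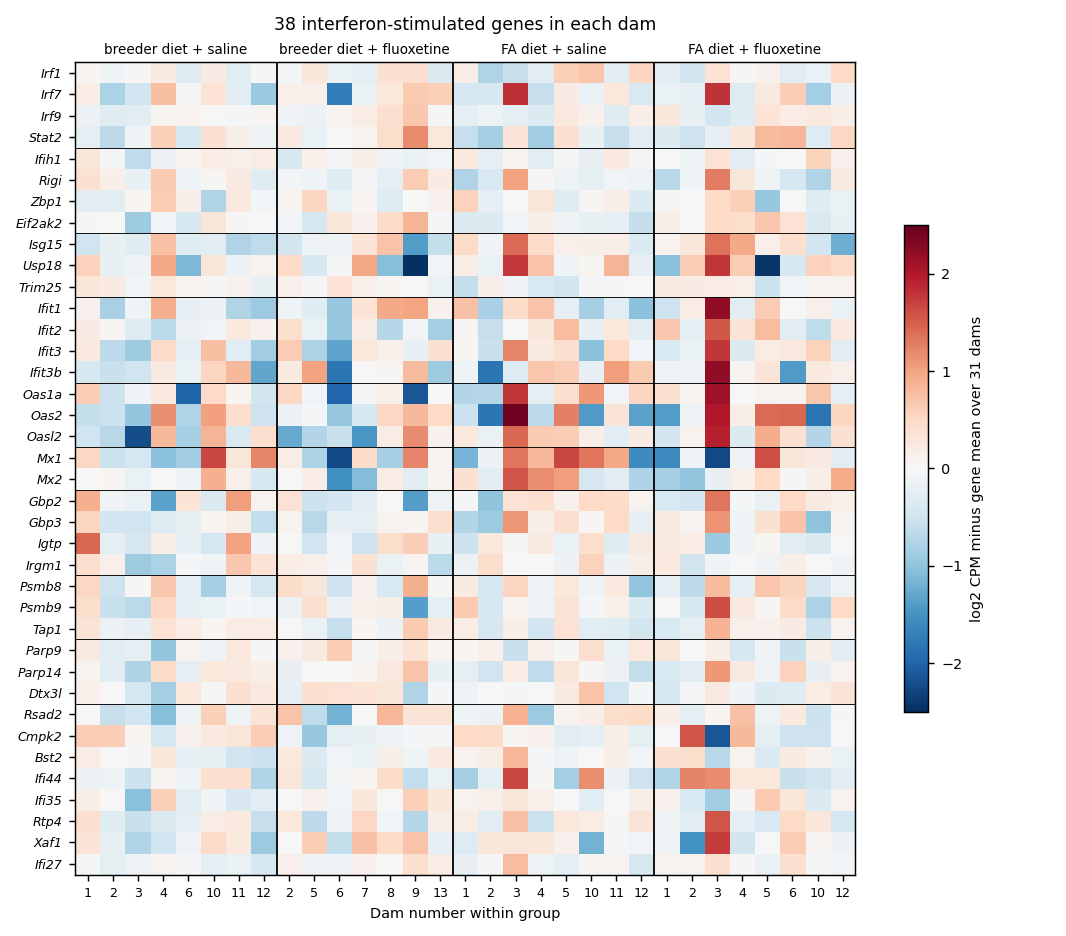
Log2 CPM of 38 interferon-stimulated genes in each of 31 dams, minus the gene's mean over all dams, with genes in the order of their roles and dams by group and number; colours saturate at the ends of the scale. Dam 3 of both FA diet groups shows high values in *Irf7*, *Isg15*, *Usp18*, *Oas1a*, *Oas2* and *Oasl2*, while *Bst2* and *Mx1* are low in that of FA diet + fluoxetine.

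Members varied together only in part. As deviations from group means over 31 dams, the 703 pairs of members had a median Pearson r of 0.15 and a median Spearman rho of 0.15, where pairs of all genes tested had a median r of 0.000553. In 72 pairs r was above 0.5, and in 217 it was below 0. In the 29 dams the medians were 0.12 and 0.11, with 38 pairs above 0.5 and 254 below 0. *Irf7* went with *Oas2* at r = 0.79 and rho = 0.74 over 31 dams, and r = 0.67 over 29. For *Irf7* and *Tap1* the values were 0.73, 0.64 and 0.66. For *Irf7* and *Isg15* they were 0.40, 0.20 and 0.07, so this relation rested on the dams 3. *Stat2* went with its partner *Irf9* at r = 0.54 and rho = 0.49 over 31 dams and r = 0.60 over 29, and with *Oas2* at 0.68, 0.63 and 0.75. *Isg15* and *Stat2* showed no such relation, with r = -0.03 over 31 dams. *Parp9* went against *Irf7*, with r = -0.43 and rho = -0.32 over 31 dams. These pairs were picked after their values were seen, the points share library and depth, and no p is given. The log2 level of a member had a median SD between dams of 0.510, near the 0.477 of all genes. For the relations with marker lists, each list was taken as the mean of log2 CPM minus the gene's mean over dams, not as summed CPM. Only markers past the filter entered, each with equal weight, and the values are again deviations from group means. The level of the interferon-stimulated genes went against the luminal secretory markers with r = -0.61 and rho = -0.44 over 31 dams and r = -0.22 over 29. With the macrophage markers the values were 0.43, 0.07 and -0.11, and with the leukocyte markers 0.43, 0.34 and 0.24. With the endothelial markers they were 0.32, 0.36 and 0.32, so this relation was as large without the dams 3. The part of these cell types was not tested.

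Upstream of the members, 11 interferon genes were read. All 11 failed the filter. *Ifne*, an epithelial type I interferon, had 87 counts over all 31 dams, *Ifnk* 6, *Ifna1* 3, *Ifna5* 3, *Ifnz* 2 and *Ifng* 1. *Ifnb1*, *Ifna2*, *Ifna4*, *Ifnl2* and *Ifnl3* had 0 counts. Interferon transcripts were thus at or near 0 at this depth, also in the dams 3, where *Ifne* had 0.179 CPM with saline and 0 with fluoxetine. The receptor, kinase and factor genes named next all passed the filter. In median CPM per kb, the interferon gamma receptor genes *Ifngr1* and *Ifngr2* had 15.5 and 1.52, the type I receptor genes *Ifnar1* and *Ifnar2* 0.580 and 3.23, and the type III receptor genes *Ifnlr1* and *Il10rb* 0.412 and 1.49. The kinase genes *Jak1*, *Jak2* and *Tyk2* had 2.93, 1.19 and 1.06 CPM per kb. The further interferon regulatory factors *Irf2*, *Irf3*, *Irf5* and *Irf8* had 0.602, 8.42, 0.239 and 0.219 CPM per kb.

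Of 125 other genes of the pathway, 124 of them found by symbol and listed as ligands, receptors and kinases, sensors and adaptors, regulators and further interferon-induced genes, 102 passed the filter and 0 were called by edgeR in any of the 3 comparisons. At an unadjusted p of 0.05 or below, 8 of 102 were higher and 2 lower with fluoxetine, where 6.94% and 2.98% of all genes were. On the FA diet, 4 were higher and 0 lower, beside 2.95% and 2.12% of all genes. For the interaction 1 was higher and 1 lower, beside 2.65% and 1.19%. These shares are near those of all genes, so the genes named next describe the list and are not a result about it. In the 29 dams the counts were 4 and 2 for fluoxetine (all genes 6.68% and 3.75%), 0 and 3 for FA (all genes 3.39% and 3.73%), and 0 and 2 for the interaction (all genes 2.29% and 1.56%). The smallest p for fluoxetine had *Ifitm1*, which encodes a membrane protein that hinders viral entry, with a log2 fold change of 1.30 (SE 0.443). The GTPase gene *Iigp1* had -0.42 (SE 0.151), the receptor gene *Il10rb* 0.25 (SE 0.0932), *Jak1* -0.25 (SE 0.108) and *Slfn2* 0.41 (SE 0.185). These 5 genes had, over the 29 dams, 1.17, -0.40, 0.22, -0.24 and 0.34. On the FA diet, the DNA sensor gene *Cgas* had 0.83 (SE 0.342), the RNA sensor gene *Tlr7* 1.08 (SE 0.446), *Lgals3bp* 0.53 (SE 0.237) and *Ifi207* 0.55 (SE 0.251). Without the dams 3, *Cgas* had 0.63, *Lgals3bp* 0.19 and *Ifi207* 0.19, and *Tlr7* did not pass the filter. For the interaction, *Ifnar2* had -0.38 (SE 0.167) and the GTPase gene *Irgm2* 0.65 (SE 0.290), and in the 29 dams -0.40 and 0.54.

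The core of the interferon-stimulated response element, searched on both strands as GAAA, 2 bases of any kind and GAAA, lay within 250 bases before the annotated transcription start in 14 of 39 members (35.9%). The same windows held it in 723 of 21770 protein-coding genes (3.32%) and in 381 of 12628 protein-coding genes tested (3.02%). The gamma-activated site, a second motif of interferon responses, searched as TTC, 3 bases of any kind and GAA, lay in 6 members (15.4%) and 7.70% of protein-coding genes, and 2 members, *Zbp1* and *Bst2*, held both. A match is a description, not a site or a cause, and no match says only that these letters are not in the window. Among the 13 members tested that held the response element, dam 3 of FA diet + saline had a median ratio of 1.79 to the median of the other dams of its group and dam 3 of FA diet + fluoxetine one of 2.41. In the 25 without it the ratios were 1.20 and 1.74. The ranges overlapped, and a ratio of 2 or more was found in 4 of 13 against 7 of 25 members in the first dam and in 7 of 13 against 12 of 25 in the second, similar shares. Of the members on top in both dams, *Isg15*, *Usp18*, *Ifit3*, *Oas2* and *Rtp4* had a match, and *Irf7*, *Rigi*, *Oas1a*, *Oasl2* and *Gbp3* had none. Of the other members tested, only *Bst2*, *Ifi27*, *Ifit1*, *Ifit3b*, *Irgm1*, *Rsad2*, *Stat2* and *Zbp1* had at least 1.

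The following stretches of the genome (GRCm39, in the direction of the gene, with the match nearest the transcription start in capitals) show the element in *Isg15* (chr4:156285304-156285371, minus strand), *Usp18* (chr6:121222776-121222845, plus strand) and *Oas2* (chr5:120887950-120888019, minus strand), which were high in both dams 3, and in *Ifit1* (chr19:34618174-34618243, plus strand) and *Stat2* (chr10:128106115-128106184, plus strand), which were not. They are followed by *Ifit3* (chr19:34560777-34560846, plus strand) and *Ifit3b* (chr19:34585173-34585242, plus strand), neighbours whose printed 70 bases are identical. The TTTC form of the motif is the same element read on the other strand. The stretches of *Isg15*, *Usp18* and *Ifit1* hold further matches, left in lower case, and the 250-base windows of these genes hold 3, 2 and 2 matches in all.
Isg15: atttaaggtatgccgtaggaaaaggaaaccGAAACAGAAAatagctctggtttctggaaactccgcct
Usp18: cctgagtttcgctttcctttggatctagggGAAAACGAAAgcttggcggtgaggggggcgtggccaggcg
Oas2: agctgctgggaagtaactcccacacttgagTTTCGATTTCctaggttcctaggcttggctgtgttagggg
Ifit1: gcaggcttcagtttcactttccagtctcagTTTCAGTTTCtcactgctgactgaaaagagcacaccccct
Stat2: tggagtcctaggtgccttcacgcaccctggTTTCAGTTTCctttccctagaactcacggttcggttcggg
Ifit3: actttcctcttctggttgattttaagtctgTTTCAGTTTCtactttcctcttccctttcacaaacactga
Ifit3b: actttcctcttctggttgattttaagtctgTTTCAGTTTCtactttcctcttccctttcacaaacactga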

How the data were processed

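The authors used Trim Galore 0.4.4 for trimming, Hisat2 for mapping (GRCm39) and htseq-count for counting. The deposited values are raw counts per Ensembl gene, 1 library per dam, with no strand option or annotation release named. Symbols, exon lengths and transcription starts come from GENCODE vM39. In R 4.3.3, edgeR 4.0.16 was used with filterByExpr by group, TMM, a model of 4 groups, robust quasi-likelihood tests of fluoxetine, FA and interaction contrasts, and Benjamini-Hochberg adjustment over 14362 genes. Standard errors come from the log2 fold change and F statistic. Log2 CPM carry a prior count of 2. Common dispersion was 0.169, and the lowest chi-square per degree of freedom between 2 dams of a group was 15.8, so dams differed by more than counting error.

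Given in full are *Isg15*, *Irf7*, *Irf9*, *Stat2*, 6 members of smallest p for fluoxetine, 3 for FA and 3 for the interaction; pathway genes are named as ligands, receptors, kinases, STAT or IRF factors, or for their p (up to 5 a comparison). Some genes, and the marker lists that rest on them, are not reported. The members, the pathway list and the marker lists were chosen with earlier results of these data known. Alternatives were the likelihood ratio test, DESeq2 1.42.0, no filter, 1 CPM in 7 libraries, RLE and upper quartile scaling, an additive model, a fit without the 20 most abundant genes, contrasts within 1 diet or treatment, no robust estimation, a replicate block on the dam number, and each dam left out. Leaving out both dams 3, voom with sample quality weights (limma 3.58.1), and list levels on RLE and upper quartile scales were chosen after seeing the data.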

Additional observations from a re-analysis of the deposited data

Results flagged for a closer look

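In 15 of 56 groups of dams checked (the list level and 13 genes in 4 groups), the highest or lowest dam was separated from its nearest neighbour by an unusually large share of the group's range (Dixon's criterion). Chance gives this in about 1 in 20 groups of independent, normally distributed values. Here the values are mostly CPM with a skewed spread, the genes share dams and were partly picked for their p, so the count is not set against that rate. Dam 3 of FA diet + fluoxetine was the separated dam in 6 of them, with a list level of 0.69, *Irf7* at 21.6 CPM, *Ifit1* at 8.09 CPM, *Xaf1* at 6.06 CPM, *Oas1a* at 5.47 CPM and *Ifit2* at 4.11 CPM. Dam 3 of FA diet + saline was the separated dam in 3, with *Isg15* at 4.75 CPM, *Irf7* at 21.9 CPM and *Ifi27* at 75.0 CPM. Its list level of 0.60 did not meet the criterion (a gap of 0.423 of the group's range, where 0.526 was needed). Dam 4 of breeder diet + saline was high in *Isg15* at 2.92 CPM and in *Ifit1* at 3.20 CPM. Dam 9 of breeder diet + fluoxetine was high in *Stat2* at 44.0 CPM. In 3 groups the lowest dam was separated: dam 6 of breeder diet + fluoxetine with a list level of -0.46, dam 5 of breeder diet + fluoxetine with *Cmpk2* at 8.34 CPM, and dam 5 of FA diet + fluoxetine with *Trim25* at 12.3 CPM. The cause of these values was not tested.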

How the results depend on the processing

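No member passed the FDR of 10% under any of 47 alternatives, although for fluoxetine DESeq2 called 70 genes of all and the likelihood ratio test 45. Of 756 log2 values of genes recomputed, 11 turned in direction. The numbers of members at an unadjusted p of 0.05 or below, in either direction, moved most. Shares of all genes at that p are given above for DESeq2 and for the fit without both dams 3. For the other alternatives no such share is given, so a move in their counts cannot be told from a shift over all genes. For fluoxetine (2) it was 0 within the breeder diet alone, 4 without both dams 3, and 1 to 5 with each dam left out (1 without dam 9 of breeder diet + fluoxetine, 5 without dam 2 of FA diet + fluoxetine). For FA (3, all higher) it was 1 within saline alone (*Trim25*, lower) and 1 within fluoxetine alone (*Ifit2*, higher). It was 1 without both dams 3 (*Rigi*, lower), 1 with voom quality weights, and 0 to 5 with each dam left out. The count was 0 without dam 3 of either FA diet group, and 5 without dam 10 of FA diet + fluoxetine or dam 2 of FA diet + saline. For the interaction (0) it was 2 without both dams 3, 1 with voom quality weights, and 0 to 2 with each dam left out: 2 without dam 3 of FA diet + fluoxetine, and 1 without any 1 of these: dams 1, 4 and 11 of breeder diet + saline, dams 3 and 11 of FA diet + saline, dam 7 on breeder diet with fluoxetine, and dam 1 on FA diet with fluoxetine. With the replicate block on the dam number, these counts were 0, 1 and 1, again without shares of all genes beside them. Same-numbered dams of different groups were not treated as pairs, since they went together only weakly. Over 28 such pairs the median r of their deviations over all genes was 0.0791 (range -0.22 to 0.43). Between dams of other numbers the median r was -0.00699, so same-numbered dams were slightly more alike. Of 27 dams with a same-numbered partner, 4 went best with their own number. The block turned the log2 fold change of fluoxetine to -0.0518 for *Isg15*, -0.0496 for *Irf7* and -0.0124 for *Irf9*, and that of FA to 0.0704 for *Irf9*. For fluoxetine, *Isg15* also turned to -0.0175 within the FA diet alone, to -0.0517 with voom quality weights, and with each dam left out lay between -0.0767 and 0.17 (negative without dam 3 or 4 of FA diet + fluoxetine or dam 8 of breeder diet + fluoxetine). *Irf7* lay between -0.10 (without dam 3 of FA diet + fluoxetine) and 0.37, and for FA it turned to -0.17 without both dams 3. The members' median for fluoxetine lay between -0.04 (negative only without FA diet + fluoxetine dam 3) and 0.14 with each dam left out. It changed sign for the interaction with voom quality weights (-0.04) and, with each dam left out, lay between 0.20 and -0.17 (without FA diet + fluoxetine dam 3), negative in 6 of 31 fits. The cause was not tested. The list level of dam 3 was 0.72 by RLE and 0.74 by upper quartile scaling in FA diet + fluoxetine, and 0.61 and 0.63 in FA diet + saline. No scaling moved the median of all genes by over 0.1. Genes near 1 CPM, such as *Mx1*, *Ifit3b* and *Usp18*, are limited by depth.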
